A study of Mus musculus with 29 samples.

Results

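The cytosolic ribosome is built from ribosomal RNA and a fixed set of proteins, which the cell normally makes in matched amounts. Genes named Rps encode proteins of the small subunit, which binds the mRNA and reads its codons, and genes named Rpl encode proteins of the large subunit, which joins the amino acids. Their mRNAs carry a run of pyrimidine bases at the very 5′ end, through which the kinase mTOR controls how much they are translated. Every cell expresses them, and dividing or strongly secreting cells express them at high levels. The genes described here are the rows of the count files whose mouse symbol is Rpl or Rps followed by digits and at most 1 letter a, l or x, together with Rpsa, Rplp0, Rplp1 and Rplp2. Kinases of the Rps6k family and pseudogenes were left out. This gave 80 of the 25746 genes in the files, 49 of the large and 31 of the small subunit. Of these, 78 passed the filter on low counts, and Rpl10l and Rpl39l did not.

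RNA was sequenced from 29 brain samples in 8 groups, from mice of 3 months and both sexes. The wildtype (WT) mice and the Rag2-/- mice, which form no mature T and B cells, were on a C57BL/6 background. NSG mice are on the NOD background and carry the scid mutation of Prkdc and a null allele of Il2rg, so that NK cells are missing as well. Stroked tissue was dissected around a photothrombotic lesion of the right sensorimotor cortex at 21 dpi and came from 4 WT, 3 Rag2-/- and 3 NSG mice. It also came from 3 WT mice given the calcineurin inhibitor tacrolimus from an osmotic pump from 0 dpi (WT-Tacr acute) and from 5 given it from 7 dpi (WT-Tacr delayed). The non-stroked groups held 4 WT, 3 Rag2-/- and 4 NSG samples. Whether these are naïve mice or the other hemisphere of stroked ones is not known here, since the study's text names both. No non-stroked tacrolimus sample was analysed, and the same 4 non-stroked WT samples served WT, WT-Tacr acute and WT-Tacr delayed.

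The sample names fall into 2 series, Imm2 with 20 samples and TF with 9. All non-stroked, Rag2-/- and NSG samples and 1 of the 3 WT-Tacr acute samples (replicate 1) belong to Imm2, all WT-Tacr delayed samples belong to TF, and the stroked WT mice divide into 2 from Imm2 (replicates 1 and 2) and 2 from TF (replicates 3 and 4). Total counts ran from 17789044 to 43403413 per sample, and their median was 37223696 for the Imm2 samples but 23155303 for those of TF. The 13 mitochondrial genes took 4.90% to 7.46% of counts in Imm2 and 3.46% to 4.14% in TF. Ddx3y, a gene of the Y chromosome, was at 0 CPM (counts scaled to library size) in all 9 TF samples and at 35.5 to 52.7 CPM in the 7 WT samples of Imm2, so that sex and series moved together among WT mice. It was also at 0, 0 and 44.6 CPM in stroked NSG mice beside 49.2 to 53.1 CPM in the 4 non-stroked ones. In Rag2-/- mice it was at 0.0566, 0 and 38.9 CPM without stroke and 0, 41.5 and 48.9 CPM after it, so the NSG and Rag2-/- comparisons were not balanced for it either. In 1 library, stroked NSG replicate 1, short genes stood apart. The 1677 genes of at most 1623 bases outside the set had a median of 0.68 (log2) above the non-stroked mean in that library. In the other stroked samples this median was 0.03 to 0.18, above 0 in each, and in the non-stroked samples it was -0.08 to 0.09. Results that rest on it are given with and without it. Values below are CPM scaled by TMM. Tests are edgeR's quasi-likelihood test over 17031 genes, with a gene called at a Benjamini-Hochberg adjusted p below 0.05, and ± is the SE of a log2 fold change or the SD of a level.

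Because the 5′ pyrimidine run is what these mRNAs share, the transcription start of the genes that carry the results is shown first. RefSeq promoters on GRCm38.p6 were on hand for 60 of the 80 genes. Each line gives 15 bases before to 15 bases after the annotated start, read 5′ to 3′ on the gene's own strand, with its longest run of C and T bases in capitals. The first 7 are genes that stood out after stroke, the next 4 are genes that were low in NSG mice, and Rps6 encodes the protein whose phosphorylation is used as a readout of mTOR.
Rps27l, chr9:66946071-66946100, plus strand: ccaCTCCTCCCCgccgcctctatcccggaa
Rpl39, chrX:37085208-37085237, minus strand: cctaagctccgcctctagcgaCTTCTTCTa
Rps10, chr17:27635230-27635259, minus strand: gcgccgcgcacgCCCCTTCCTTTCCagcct
Rpl35, chr2:39005117-39005146, minus strand: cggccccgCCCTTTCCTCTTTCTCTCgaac
Rps12, chr10:23787195-23787224, minus strand: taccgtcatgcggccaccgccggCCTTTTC
Rpl10, chrX:74270801-74270830, plus strand: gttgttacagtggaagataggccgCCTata
Rplp0, chr5:115559452-115559481, plus strand: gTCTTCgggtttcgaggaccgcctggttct
Rpl34, chr3:130730323-130730352, minus strand: CCTTCCTTTTCCTCTTCCggggacggtgct
Rpl35a, chr16:33056467-33056496, plus strand: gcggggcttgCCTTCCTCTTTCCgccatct
Rps18, chr17:33955651-33955680, minus strand: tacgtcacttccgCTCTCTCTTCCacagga
Rps24, chr14:24490663-24490692, plus strand: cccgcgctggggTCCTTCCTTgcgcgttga
Rps6, chr4:86857353-86857382, minus strand: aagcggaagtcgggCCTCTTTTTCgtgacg
The runs of Rpl34 and Rpl35 were the longest of these at 18 bases, followed by Rpl35a and Rps10 at 13. The longest runs of Rps12, Rplp0 and Rpl10 had 7, 5 and 3 bases. For genes with several annotated starts, the start with the longest run is shown. An unbroken run of at least 8 C or T bases on the coding strand occurred in 27 of the 72 promoter windows of these genes (37.5%) and in 12% of all 32851 RefSeq promoter windows of the same 30 bases. On the other strand the shares were 4.17% and 13.2%. A run is a description of the letters and not a measured start.

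Ribosomal protein mRNA took a small share of all counts, and that share was higher in every stroked sample than in every non-stroked sample with 1 exception. In the non-stroked mice the 80 genes together held 0.542%, 0.578%, 0.649% and 0.609% of counts in WT, 0.611%, 0.583% and 0.664% in Rag2-/- mice. In non-stroked NSG mice they held 0.552%, 0.619%, 0.585% and 0.608%. These 3 groups overlapped. In stroked mice the share was 0.887%, 0.855%, 0.980% and 0.942% in WT, 0.843%, 0.739% and 0.859% in Rag2-/- mice, while it was 0.959%, 0.940%, 1.04%, 0.923% and 1.04% in WT-Tacr delayed mice. The WT-Tacr acute samples held 0.657%, 0.819% and 0.976%, and the lowest of these lay below the highest non-stroked sample, 0.664%. Stroked NSG mice held 0.714%, 0.789% and, in replicate 1, 1.29%.

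**Figure D1:**
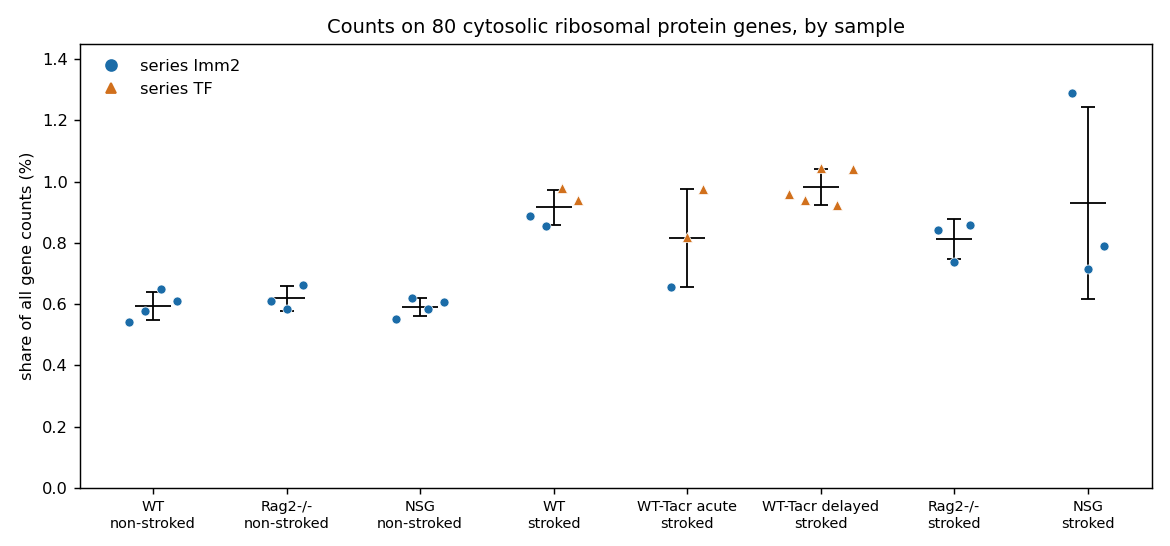
Share of all gene counts (y axis, %) that fell on the 80 ribosomal protein genes, for each of 29 samples in 8 groups (x axis). Points are samples, blue circles of series Imm2 and orange triangles of series TF, with the group mean and SD in black. Non-stroked samples sit between 0.542% and 0.664%, and stroked NSG replicate 1 is the highest sample at 1.29%.

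Levels differed widely between the genes. Per kilobase of exon sequence and averaged over all 29 samples, Rplp1, an acidic protein of the stalk that recruits elongation factors, had the highest level (590 CPM per kilobase), ahead of Rps15 (322) and Rps29 (228). At the low end were tissue-restricted relatives of other members. Rpl10l, which stands in for Rpl10 in the male germ line, had 0 counts in all 29 samples, and the limit that 0 counts allow (3 counts) was 0.0691 CPM in the deepest and 0.169 CPM in the shallowest library, for counting error only. Rpl39l, the relative of Rpl39 in the testis, had 76 counts in all samples together (0.0994 CPM per kilobase). Rpl3l, the relative of Rpl3 in striated muscle, had 0.201 CPM per kilobase and was not called in any of the 5 stroke comparisons. Rps27l, a relative of Rps27 and a target of p53, was the next lowest of the members named here at 6.44 CPM per kilobase, against 72.4 for Rps27.

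In WT mice, ribosomal protein genes rose after stroke nearly as a body. Of the 78 genes tested, 59 rose and 0 fell, whereas 15.2% of all genes tested rose and 11.6% fell. The median log2 fold change of the 78 was 0.52, with 77 of 78 above 0, and the median of all genes tested was -0.00. In 60 of the 78 every stroked sample lay above every non-stroked one, which held for 16.3% of all genes. Both subunits took part, with 32 of 47 large and 27 of 31 small subunit genes called and medians of 0.46 and 0.58. Called changes above 1 on the log2 scale were seen in 4 genes, Rps27l, Rps14, Rpl39 and Rpl10, and 7.3% of all genes changed by more than that in either direction.

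Rplp0, the core protein of the large subunit's stalk, rose in WT mice in all 4 stroked samples. Its non-stroked levels were 90.7, 86.1, 99.8 and 89.3 CPM and its stroked levels 140, 138, 139 and 153 CPM. The groups did not overlap, and the log2 fold change was 0.64 ± 0.107 (adjusted p = 0.000148). Its partners on the stalk also rose, Rplp1 by 0.40 ± 0.135 (adjusted p = 0.0292) and Rplp2 by 0.43 ± 0.144 (adjusted p = 0.0285). Within Imm2 neither of these was called (0.55 and 0.38, adjusted p = 0.0618 and 0.231), and with the series as a covariate Rplp1 was called and Rplp2 was not (adjusted p = 0.0396 and 0.18). Rpsa, a small subunit protein that also goes by the name laminin receptor, rose by 0.58 ± 0.129 (adjusted p = 0.0022). Rps12, of the small subunit, was at 85.1, 88.0, 96.7 and 94.1 CPM without stroke and at 142, 154, 137 and 120 CPM after it. All 4 stroked samples lay above the non-stroked ones (0.60 ± 0.133, adjusted p = 0.00201).

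The 5 largest changes in WT mice belonged to genes whose stroked samples split by series. Rps14, of the small subunit, was at 50.7, 57.2, 66.2 and 54.2 CPM without stroke. After stroke it was at 95.9 and 82.3 CPM in the Imm2 mice and at 166 and 167 CPM in the TF mice. Both pairs lay above the non-stroked samples, and the pooled log2 fold change of 1.16 ± 0.225 (adjusted p = 0.000601) was 0.65 ± 0.183 (adjusted p = 0.0336) in a fit of the Imm2 samples alone. Rpl39, at the polypeptide exit tunnel, was at 9.23, 10.1, 11.7 and 12.5 CPM without stroke, at 17.9 and 15.6 CPM in stroked Imm2 mice and at 35.8 and 27.4 CPM in stroked TF mice. Its log2 fold change was 1.15 ± 0.254 (adjusted p = 0.002) over all samples and 0.63 within Imm2 (adjusted p = 0.0374). With the series as a covariate Rpl39 was not called. Rps27l was at 2.62, 2.18, 2.94 and 3.08 CPM without stroke and at 4.24, 4.28, 8.69 and 7.27 CPM after it, the last 2 being TF. It rose by 1.17 ± 0.234 over all samples (adjusted p = 0.000806), while the Imm2 fit gave 0.66 ± 0.207 (adjusted p = 0.0564). With the series as a covariate Rps27l was called. Rpl10 rose by 1.003 ± 0.192 (adjusted p = 0.000556) and by 0.56 within Imm2 (adjusted p = 0.00608). Rps27a, which encodes ubiquitin fused to a small subunit protein, rose by 0.94 ± 0.223 (adjusted p = 0.00339) but had 0.49 within Imm2 (adjusted p = 0.124). It was not called with the series as a covariate either.

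Within Imm2, where 2 stroked WT mice remained, 21 of the 78 genes rose, against 6.51% of all genes in that fit, and with the series as a covariate 29 rose, against 7.42%. The median log2 fold change of the genes was 0.49 and 0.42 in these fits. Of the 29 genes called with the covariate, 27 were among the 59. Rplp0, Rps12, Rpsa, Rps4x, Rps9, Rps14, Rpl3 and Rpl10 passed in both.

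Genes with known roles outside the ribosome or in disease mostly moved with the rest. Rps19, the gene most often mutated in Diamond-Blackfan anaemia, rose by 0.73 ± 0.156 (adjusted p = 0.00137). Rpl5, which with Rpl11 and 5S rRNA binds Mdm2, rose by 0.53 ± 0.126 (adjusted p = 0.00371). Its partner Rpl11 had 0.24 ± 0.158 over all samples (adjusted p = 0.273) and 0.52 within Imm2 (adjusted p = 0.0696). Rpl11 was at 161.7 and 179 CPM in the stroked Imm2 WT mice and at 117.6 and 103.5 CPM in the stroked TF ones. Rpl13a, part of a complex that silences inflammatory mRNAs, rose by 0.58 ± 0.138 (adjusted p = 0.0036), but it shares sequence with the overlapping gene Gm45713 (252 to 278 CPM in stroked WT mice), so reads cannot be assigned with certainty. Rpl22 rose by 0.52 ± 0.119 and Rpl38, needed for the translation of Hox mRNAs, by 0.76 ± 0.195 (adjusted p = 0.00258 and 0.00604). Rpl3, at the peptidyl transferase centre, rose by 0.77 ± 0.148 (adjusted p = 0.000566), Rps4x by 0.76 ± 0.145 (adjusted p = 0.000494) and Rps27 by 0.86 ± 0.182 (adjusted p = 0.00137). Within Imm2 and with the series as a covariate, Rpl5 (0.40 and 0.33, adjusted p = 0.0818 and 0.0686) and Rpl38 (0.47 and 0.39, adjusted p = 0.161 and 0.136) were no longer called. Rpl22 and Rps27 were lost within Imm2 (adjusted p = 0.0501 and 0.0573) but called with the covariate (0.35 and 0.53, adjusted p = 0.0481 and 0.0349). Rps19 and Rpl3 were called in both and had 0.45 and 0.47 with the covariate. Rps6 was at 85.1, 77.97, 85.8 and 85.9 CPM without stroke and at 102, 114, 78.7 and 85.4 CPM after it. These samples overlapped, and it was not called (0.19 ± 0.13, adjusted p = 0.294). The higher stroked samples, 102 and 114 CPM, were those of Imm2, and within Imm2 Rps6 had 0.38 (adjusted p = 0.152).

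**Figure D2:**
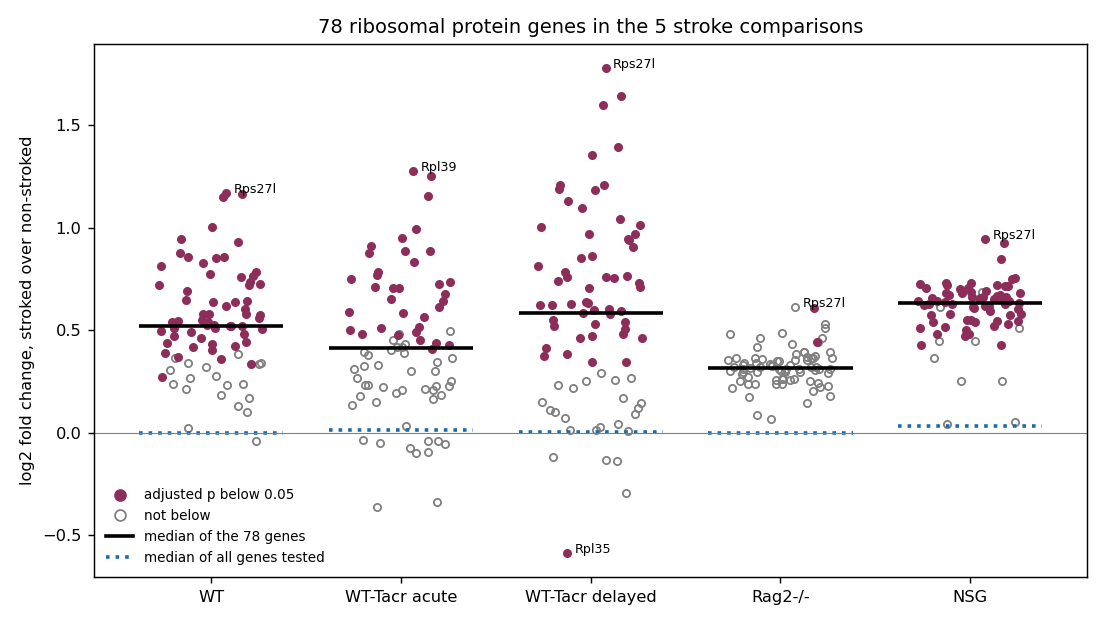
Log2 fold change of stroked over non-stroked samples (y axis) for 78 ribosomal protein genes in the 5 stroke comparisons (x axis). Filled points passed an adjusted p of 0.05 and open points did not, and bars mark the median of the 78 genes (solid) and of all 17031 genes tested (dotted). The solid bars sit at 0.52, 0.41, 0.58, 0.32 and 0.63, and Rpl35 is the only filled point below 0.

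In WT-Tacr acute mice, 35 of the 78 genes rose and 0 fell, against 6.18% and 2.36% of all genes, with a median of 0.41 and 68 of 78 above 0. All stroked samples lay above all non-stroked ones in 31 genes, and in 10.4% of all genes. The 3 samples differed among themselves. Rps14 was at 76.2, 159 and 174 CPM, Rpl39 at 12, 31.2 and 36.2 CPM, and Rps10, a small subunit protein, at 21.8, 50.9 and 55.1 CPM in replicates 1, 2 and 3. Rps10 overlaps the readthrough gene RPS10-NUDT3, so its reads cannot be assigned with certainty. For all 3 genes the low sample was replicate 1, the only Imm2 mouse, which for Rpl39 lay inside the non-stroked WT range. Their log2 fold changes against non-stroked WT mice were 1.25 ± 0.239, 1.28 ± 0.27 and 1.16 ± 0.236 (adjusted p = 0.00472, 0.00729 and 0.0065), followed by Rps27l (0.99 ± 0.25, adjusted p = 0.0197) and Rpl10 (0.95 ± 0.205, adjusted p = 0.00865). Rplp0 was not called (0.35 ± 0.115, adjusted p = 0.0577). With the series as a covariate 0 of the 78 were called, against 0.258% of all genes rising. With only the 7 samples of the groups compared the count was 0, against 0.0819%, and without replicate 3 it was 0, against 0.18%.

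In WT-Tacr delayed mice, all from TF, 54 of the 78 genes rose and 1 fell, against 27.6% of all genes in each direction. The median was 0.58, with 73 of 78 above 0, and 14 of the called genes exceeded 1 on the log2 scale, against 15.5% of all genes in either direction. All stroked samples lay above the non-stroked ones in 57 genes and below them in 2, against 26.5% and 27.4% of all genes. Rps27l was at 8.81, 8.79, 10.8, 7.74 and 10.3 CPM, all above the non-stroked WT samples, and rose by 1.78 ± 0.228 (adjusted p = 1.61e-06). Rps14 was at 168, 176, 193, 170 and 185 CPM and rose by 1.64 ± 0.22 (adjusted p = 2.65e-06), Rpl39 by 1.60 ± 0.247 (adjusted p = 1.29e-05), Rps10 by 1.39 ± 0.215 (adjusted p = 1.27e-05) and Rpl10 by 1.36 ± 0.187 (adjusted p = 3.51e-06). Rplp0, at 151, 153, 158, 141 and 173 CPM, rose by 0.76 ± 0.103 (adjusted p = 2.93e-06). The gene that fell was Rpl35, of the large subunit, at 28.3, 25.7, 27.8, 26.8 and 25.1 CPM against 43.2, 36.0, 44.4 and 36.9 CPM in non-stroked WT mice (-0.59 ± 0.21, adjusted p = 0.0208). With the series as a covariate 4 genes were called, Rps27l, Rps14, Rplp0 and Rpl10a, against 5.71% of all genes rising, the median was 0.36, and Rpl35 had 0.36 ± 0.209 (adjusted p = 0.3).

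The split by series was itself wide. In the fit with series as a covariate, 29 of the 78 genes were higher and 8 lower in TF than in Imm2, against 13.2% and 14.4% of all genes. The largest differences were those of Rpl39 (1.14 ± 0.174), Rps10 (1.04 ± 0.138) and Rps14 (0.99 ± 0.156) above, and of Rpl35 (-0.95 ± 0.158) below (adjusted p = 4.37e-05, 7.46e-06, 5.9e-05 and 0.000113). Among the 4 stroked WT mice, both TF samples lay above both Imm2 samples for 36 of the 78 genes and below them for 26, and over all genes these shares were 34.1% and 31.3%. Against the non-stroked WT mean, the log2 ratios of the 78 genes ran from -0.48 to 0.72 in the Imm2 pair and from -0.64 to 1.56 in the TF pair, with medians of 0.48 and 0.56. Rpl35 was at 51.2 and 59.98 CPM in the stroked Imm2 WT mice and at 26.2 and 25.2 CPM in the stroked TF WT mice, on either side of the non-stroked samples. The part of depth, sex and mitochondrial share, which moved with series, was not tested.

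**Figure D3:**
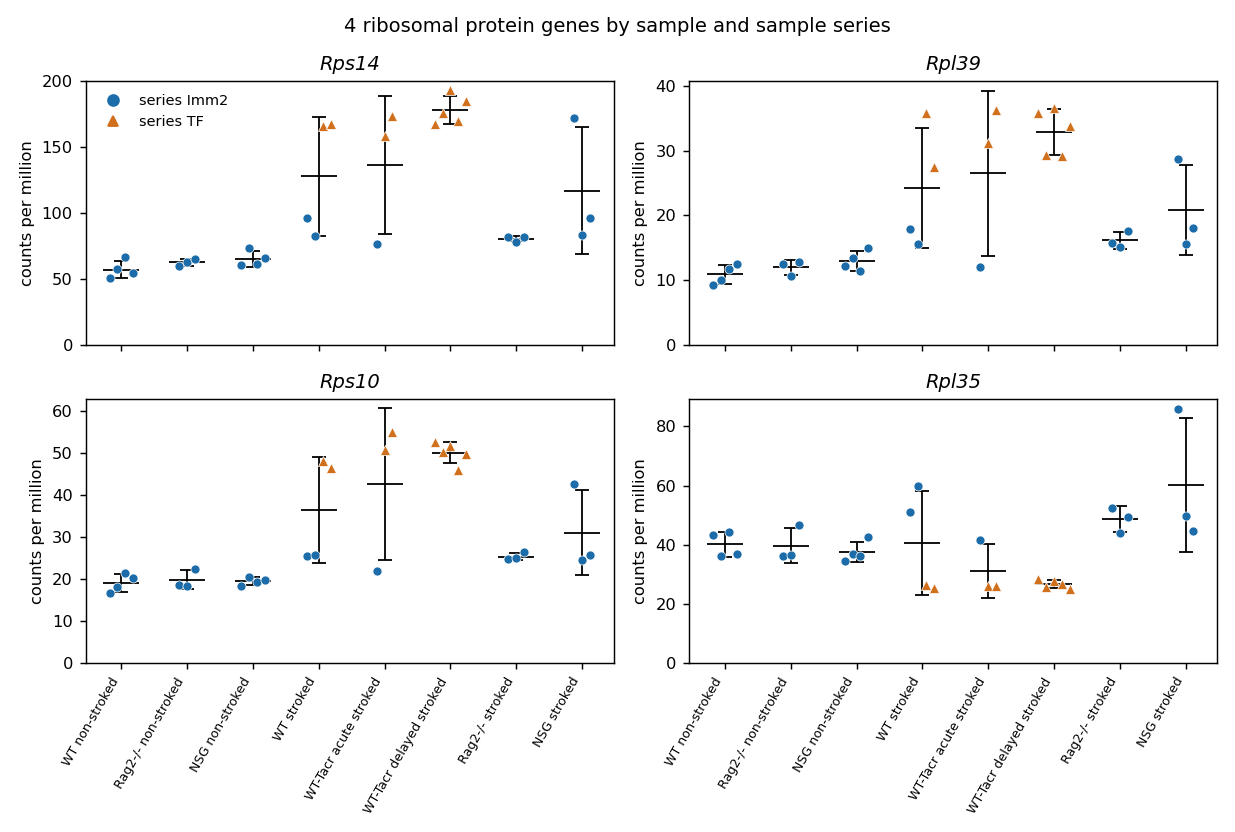
CPM (y axis, from 0) of Rps14, Rpl39, Rps10 and Rpl35 by group (x axis), with Imm2 samples as blue circles and TF samples as orange triangles, and mean ± SD in black. In the stroked WT group the TF samples of Rps14 sit at 166 and 167 CPM above the Imm2 samples at 82.3 and 95.9 CPM, and for Rpl35 the order is turned.

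In Rag2-/- mice the genes lay higher after stroke by small amounts, and few passed the test. All 78 genes had a log2 fold change above 0, from 0.07 to 0.61 with a median of 0.32. In 58 of 78 all 3 stroked samples lay above all 3 non-stroked samples, which was so for 18.8% of all genes. An unadjusted p below 0.05 was seen for 28 of the 78 and for 3691 of all 17031 genes. Yet only 2 of 78 rose and 0 fell, against 6.71% and 1.53% of all genes. The 2 were Rps12, at 85.6, 84.1 and 99.9 CPM without stroke and 157, 121 and 134 CPM after it (0.61 ± 0.154, adjusted p = 0.0139), and Rplp0, at 84.7, 92.0 and 97.9 CPM without stroke and 141, 113 and 119 CPM after it (0.44 ± 0.124, adjusted p = 0.0261). Rps14 had 0.37 ± 0.258 (adjusted p = 0.445). When the 6 Rag2-/- samples were fitted alone, 46 of the 77 genes tested there rose, against 10.7% of all genes. Without non-stroked replicate 1, non-stroked replicate 2 or stroked replicate 1, 0 were called. Over all genes these fits called 566, 612 and 465 higher and 100, 76 and 30 lower, of 17250, 17261 and 17252 tested.

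In NSG mice 68 of the 78 genes rose and 0 fell, against 13% and 8.89% of all genes, with a median of 0.63 and all 78 above 0, but this count rested on replicate 1. In 60 genes the stroked samples all lay above the non-stroked ones, against 13.6% of all genes. Without that library 13 of the 78 rose, against 8.03% of all genes, and the median was 0.28. Rps12, Rplp0, Rps4x, Rps6, Rplp2, Rpsa and Rpl10a were among them. Fitted with the 7 NSG samples alone, 4 rose, against 4.52% of all genes, namely Rps27l, Rps12, Rpl10 and Rplp0. Rps12 was at 78.5, 88.3, 88.4 and 95.6 CPM without stroke and at 229, 140 and 131 CPM after it, replicate 1 first. Even the lower stroked samples lay above the non-stroked group, with 0.93 ± 0.142 over all samples (adjusted p = 0.000116) and 0.62 ± 0.118 without replicate 1 (adjusted p = 0.00112). Rplp0 was at 81.5, 89.3, 81.0 and 86.3 CPM without stroke and at 167, 126 and 109 CPM after it, with 0.66 ± 0.115 and, without replicate 1, 0.46 ± 0.104 (adjusted p = 0.000381 and 0.00455). Rps27l (0.95 ± 0.245), Rps14 (0.85 ± 0.238) and Rps9 (0.76 ± 0.17) rose over all samples (adjusted p = 0.00819, 0.0135 and 0.003) and were no longer called without that library (adjusted p = 0.0621, 0.237 and 0.0761). Rps4x rose by 0.75 ± 0.154 with it and by 0.44 ± 0.132 without it (adjusted p = 0.0015 and 0.0331).

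The stroke response of NSG or Rag2-/- mice was not called different from that of WT mice for any of the 78 genes. The difference of the log2 fold changes had a median of 0.07 for NSG less WT and of -0.21 for Rag2-/- less WT. All NSG and Rag2-/- samples are from Imm2, and with the series as a covariate these medians were 0.20 and -0.09, and within Imm2 0.11 and -0.15. For NSG less WT the median was -0.21 without stroked NSG replicate 1, 0.25 without replicate 2 and 0.17 without replicate 3. An unadjusted p below 0.05 occurred for 3 of the 78 in each, and for 2167 (NSG) and 713 (Rag2-/-) of all 17031 genes. Of all genes, 5 and 0 were called (0.0294% and 0%). DESeq2 also called 0 of the 78 in both, and over all genes 82 higher and 54 lower in the first and 0 in the second. Between stroked groups, 0 of the 78 were called in WT-Tacr acute against WT and 0 in WT-Tacr delayed against WT, against 0% of all 17031 genes in both. An unadjusted p below 0.05 occurred for 4 and 8 of the 78, and for 2168 and 3455 of all 17031 genes. DESeq2 called 0 of the 78 in both, and over all genes 2 lower in the first and 4 higher and 195 lower in the second. WT-Tacr delayed against acute mice gave 2 higher genes, Rplp0 (0.42 ± 0.112, adjusted p = 0.0148) and Rps27l (0.79 ± 0.241, adjusted p = 0.0249), and 0 lower, against 10.4% and 9.96% of all genes. Within the TF series 0 of the 78 were called, and 0 of all 15984 genes tested there.

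Without stroke, NSG mice differed from both other strains in a few ribosomal protein genes, of which Rpl34 and Rpl35a stood furthest apart. Against WT mice 2 of the 78 were higher and 7 lower, where 4.84% and 4.92% of all genes were higher and lower. Counting genes whose samples did not overlap, 3 were higher and 13 lower, against 9.84% and 11.9% of all genes. Rpl34, a large subunit protein (chromosome 3, 130726831 to 130730398), was at 28.3, 29.1, 33.6 and 30.8 CPM in WT and 32.9, 32.6 and 36.0 CPM in Rag2-/- mice but at 5.12, 5.36, 4.14 and 5.82 CPM in NSG mice. The groups were far apart, with log2 fold changes of -2.58 ± 0.189 against WT and -2.73 ± 0.197 against Rag2-/- mice (adjusted p = 1.95e-10 and 1.66e-10). Rpl35a (chromosome 16, 33056453 to 33060189), another gene of Diamond-Blackfan anaemia, was at 33.9, 40.0, 42.7 and 46.4 CPM in WT, 42.8, 40.1 and 43.8 CPM in Rag2-/- and 6.41, 7.44, 7.34 and 8.66 CPM in NSG mice (-2.45 ± 0.148 against WT, adjusted p = 5.18e-12). Rpl29 (chromosome 9, 106429454 to 106431568) was at 33.8, 33.0, 46.3 and 39.6 CPM in WT and 11.1, 14.0, 11.3 and 19.95 CPM in NSG mice (-1.44 ± 0.152, adjusted p = 1.5e-07). Rps18 fell short by less, at 46.4, 47.5, 54.2 and 46.8 CPM in WT and 21.3, 24.5, 25.8 and 24.6 CPM in NSG mice (-1.02 ± 0.161, adjusted p = 7.39e-05).

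Rpl21 (-0.85 ± 0.142), Rps24 (-0.84 ± 0.169) and Rpl3 (-0.47 ± 0.148) completed the lower genes, and Rps9 (0.58 ± 0.159) and Rpl10a (0.55 ± 0.109) were the higher ones (adjusted p = 0.000148, 0.00132, 0.0422, 0.0193 and 0.00108). Against Rag2-/- mice, 6 of these 7 were lower, all but Rpl3 (adjusted p = 0.0657), and Rpl10a was higher (0.45 ± 0.119, adjusted p = 0.0178), against 3.26% and 3.07% of all genes. Between Rag2-/- and WT mice none of the 78 was called, also 0 by DESeq2, and 1 of all 17031 genes was called (0.00587%). An unadjusted p below 0.05 was seen there for 0 of the 78 and for 349 of all 17031 genes. In stroked NSG mice Rpl34 was at 9.03, 5.71 and 6.15 CPM and Rpl35a at 13.0, 7.04 and 8.81 CPM, below every stroked sample of the other groups. Rps24 was at 260.9, 132.5 and 145 CPM there and overlapped stroked WT mice (275.3, 300.6, 191.8 and 169.5 CPM). Stroked NSG and WT mice were not tested against each other. NSG mice are a different inbred strain from the other groups, so that the NOD background and the immune alleles cannot be told apart.

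Near-identical gene copies bear on these values, since reads that match several places can be lost or counted elsewhere. In the GENCODE M21 annotation of GRCm38, 70 of the 80 genes had at least 1 other gene whose transcript matched at least 90% of their coding sequence at 95% identity or more, with a median of 4 and up to 56 copies for Rpl21. Of the 510 distinct copies, 19 are rows of the count files. Rpl34 had 5, Rpl35a 14, Rpl29 25 and Rps24 7 copies, but only for Rpl29 was a copy among those rows, Gm3550, with mean levels of 0 to 0.0186 CPM. Rps18 was different. Its copy Gm10260 was at 0.0285, 0, 0 and 0.0825 CPM in non-stroked WT mice and at 0 to 0.0992 CPM in all 22 WT, WT-Tacr and Rag2-/- samples, yet at 18.7, 18.6, 19.0 and 19.7 CPM in non-stroked and 45.2, 26.5 and 26.1 CPM in stroked NSG mice. Summed, Rps18 and Gm10260 reached 40.0, 43.1, 44.8 and 44.3 CPM in non-stroked NSG mice beside 46.4, 47.5, 54.2 and 46.9 CPM in WT mice, and Rps18 itself was 53.3% to 57.5% of that sum in NSG mice. The Rps23 copy Gm5148 went the other way, from 5.61, 4.95, 4.96 and 4.34 CPM in WT to 0.0293, 0.0762, 0.0567 and 0.0619 CPM in NSG mice. BC004004, which holds a match to Rpl21, was higher in NSG mice (0.36 ± 0.0827, adjusted p = 0.00431). These 3 copies were chosen after their values were seen, and the mapping of reads was not examined. Rps9 and Rpl10a had 1 copy each, not in the files.

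**Figure D4:**
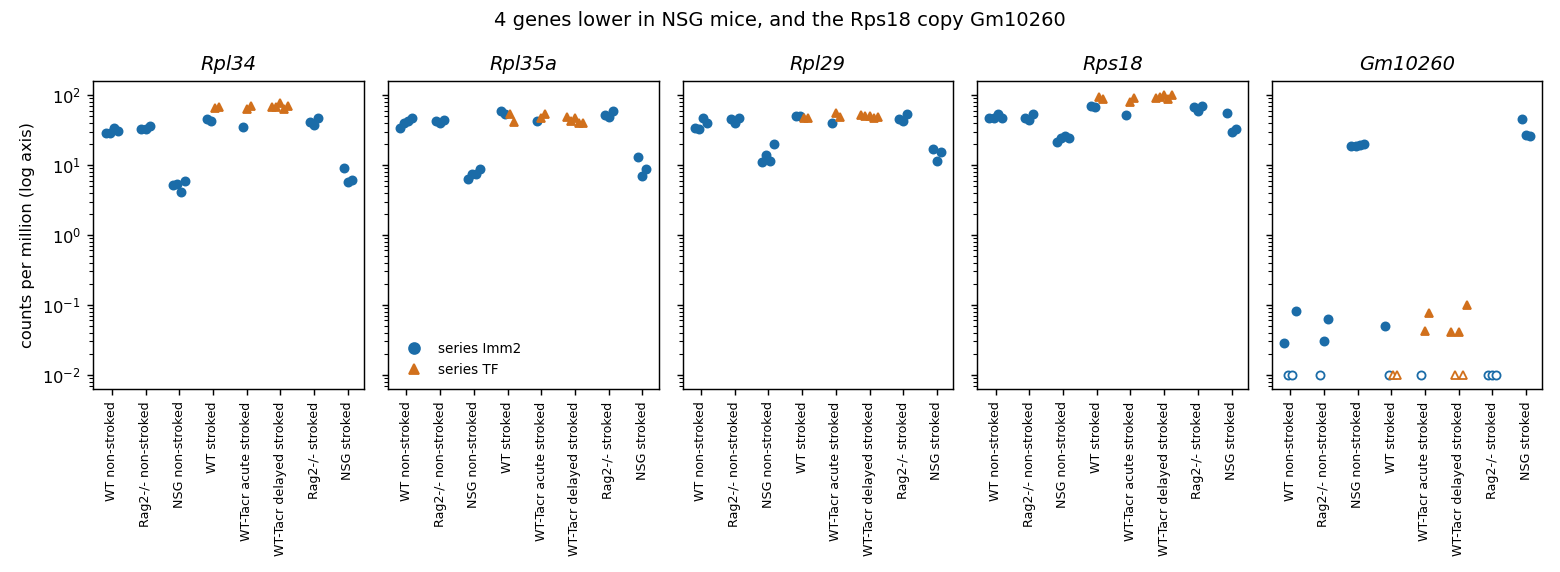
CPM (y axis, log scale) of 4 genes lower in NSG mice and of Gm10260, the near-identical copy of Rps18, by group (x axis). Points are samples, and open markers are samples at 0, drawn at 0.01. Rpl34 sits at 4.14 to 5.82 CPM in non-stroked NSG mice and at 28.3 to 36.0 CPM in the other non-stroked strains, while Gm10260 is near 0 outside NSG mice.

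Other genes of the translation machinery were read from lists, to be read against 15.2% of all genes higher and 11.6% lower in WT and 13% higher and 8.89% lower in NSG mice. The closest are ribosomal proteins and partners that the naming rule leaves out, such as Rps3a1, Rack1 and Fau, of which 6 of 7 tested rose after stroke in WT mice (median 0.55), 3 in WT-Tacr acute, 6 in WT-Tacr delayed, 0 in Rag2-/- and 5 in NSG mice. Rack1, the scaffold on the small subunit's head, rose in WT mice by 0.55 ± 0.117 (adjusted p = 0.00141), and Fau, the precursor of a small subunit protein, by 0.89 ± 0.174 (adjusted p = 0.000642). Elongation factors and other mRNAs with a 5′ pyrimidine run were mixed in WT mice, with 6 of 22 higher and 2 lower and a median of 0.15. The elongation factor gene Eef1a1 rose by 0.44 ± 0.0922 (adjusted p = 0.00133), and Eef2 had -0.03 ± 0.0747 (adjusted p = 0.816). Genes of ribosome biogenesis had 3 of 42 higher, 4 lower and a median of -0.02, and nucleolin (Ncl) had -0.05 ± 0.093 (adjusted p = 0.716). Of 21 genes of mTOR control, 2 rose and 6 fell (median -0.12), and among these the S6 kinase gene Rps6kb1 fell by 0.33 on the log2 scale (adjusted p = 0.0162). The 78 mitochondrial ribosomal protein genes had 5 higher and 1 lower in WT mice with a median of 0.02. In NSG mice 18 of these 78 rose, and their sum was 2636 CPM in the library with raised short genes beside 1662 and 1798 CPM in the other stroked NSG mice.

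Cell types moved with stroke too, and in bulk tissue more cells of a type and more RNA per cell cannot be told apart. Counts of markers called stand beside 15.2% of all genes higher and 11.6% lower in WT mice after stroke. In WT-Tacr delayed mice these shares were 27.6% each, and for TF against Imm2 they were 13.2% and 14.4%. All 15 microglia and macrophage markers were detected in every group, 14 of them rose in WT mice, and their sum was 413 to 559 CPM over the non-stroked samples beside 1284 to 1647 CPM in stroked WT, 1229 to 1714 in Rag2-/-, 1169 to 1847 in NSG and 1556 to 2287 in WT-Tacr delayed mice. In WT-Tacr acute mice it was 623, 548 and 1558 CPM in replicates 1, 2 and 3, beside ribosomal protein shares of 0.657%, 0.819% and 0.976%. The 6 fibroblast markers summed to 84.3 to 207 CPM without stroke and to 405 to 833 CPM in stroked WT, 445 to 463 in Rag2-/-, 217 to 1491 in NSG, 501 to 1904 in WT-Tacr delayed and 99.2 to 510 CPM in WT-Tacr acute mice. The 12 neuronal markers had none higher and 5 lower in WT mice (median -0.35) and 10 lower in WT-Tacr delayed mice (median -0.68). All 12 neuronal markers were detected in every group, and 7 were lower and 1 higher in TF than in Imm2 (median -0.36). Their sums were 12240 and 13630 CPM in stroked Imm2 WT mice and 9126 and 9105 CPM in stroked TF WT mice, beside 13040 to 14620 CPM without stroke. Of 8 astrocyte markers 7 rose in WT mice, and 0 of 8 oligodendrocyte markers were called there. Of 7 endothelial markers 3 fell in WT mice (median -0.32), and 6 were higher in TF than in Imm2 (median 0.74). Their sums were 114 and 112 CPM in stroked Imm2 and 222 and 178 CPM in stroked TF WT mice, beside 182 to 229 CPM in non-stroked WT mice. The 6 choroid plexus markers varied from 4.79 to 1585 CPM between samples, and the part of the dissection in this was not tested. The 10 T and B cell markers summed to at most 36.4 CPM in any sample, and that sample was non-stroked NSG replicate 4. Their mean sums without stroke were 20.7 CPM in NSG, 10.5 in Rag2-/- and 8.18 in WT mice. Of the 10 markers, 6, 2 and 1 were at 0 in these groups, so the NSG sum rests on the other markers. Of the 7 tested, 0 were called in non-stroked NSG against WT mice, with a median log2 fold change of -1.44. After stroke 4 of the 7 rose in WT mice (median 1.43) and 6 in WT-Tacr delayed mice (median 2.38). In WT-Tacr acute, Rag2-/- and NSG mice 0 of the 7 were called, against 6.18%, 6.71% and 13% of all genes higher. The part of cell numbers in the ribosomal protein values was not tested.

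Across the 29 samples, the genes outside the set whose log2 CPM followed the summed level of the ribosomal protein genes most closely were Gm45713 (Pearson's r = 0.99), Rps3a1 (0.97), Eef1b2 (0.95), Taf13 (0.95) and Atraid (0.94). Gm45713 overlaps Rpl13a and shares sequence with it, Rps3a1 is a ribosomal protein that the naming rule leaves out, and Eef1b2 is an elongation factor subunit. The samples share groups, series and 1 outlying library, so these values are a description over samples that are not independent.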

How the data were processed

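Poly(A) RNA of brain tissue was sequenced from stranded libraries, and reads were aligned and counted at a core facility. The aligner, genome build, annotation and strand setting are not given in the sources used here. The authors deposited raw, unnormalized counts of reads per Ensembl gene for 29 samples. Genes were matched by ID to GENCODE M21 (GRCm38), which held 25712 of 25746 IDs. Counts were fitted in R 4.3.3 with edgeR 4.0.16 (TMM, filterByExpr by group, quasi-likelihood test) in 1 model of 8 groups and adjusted by Benjamini-Hochberg over all genes. The SE is the absolute log2 fold change divided by the square root of F. A pseudocount of 0.1 CPM was used for medians by length and for correlations. The code was tested on simulated data. Nothing in the labels states separate litters or batches, so p-values measure the spread between these samples. No 2 samples of a group agreed within sampling noise (smallest chi-square per gene 7.96).

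The genes, lists and rules were chosen with earlier results of these data known. Named were the 5 called genes that moved most in each stroke comparison and in NSG against WT and Rag2-/- mice, genes called in the rare direction of a comparison, genes of fixed roles, and the 3 highest and 3 lowest by level per length. Copies were found with BLAST on GENCODE M21 transcripts, and promoters are RefSeq's. Alternatives were RLE factors, library totals, scaling without these genes, no filter, DESeq2 1.42.0, only the groups compared, the series as a covariate, Imm2 alone, a log2 fold change above 1, a length-trend offset, a replicate block and leaving out each sample. A fit of TF alone was added after the data were seen. Protein sequences were not used here.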

Additional observations from a re-analysis of the deposited data

Results flagged for a closer look

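Among 136 groups of 4 or 5 samples examined for the named genes and their sum, 7 had a sample set apart from the others by Dixon's criterion, about what chance gives at 1 in 20. In stroked WT mice, replicate 4 was the highest for Rplp0 (153 CPM, others 138 to 140) and for Rpl10a (50.7 CPM, others 44.1 to 44.7). In non-stroked WT mice, replicate 4 was the highest for Rps18 (54.2 CPM, others 46.4 to 47.5) and for Rpl13a (216 CPM, others 175 to 182), and replicate 3 was the lowest for Rps6 (77.97 CPM, others 85.1 to 85.9). In WT-Tacr delayed mice, replicate 3 was at 0 CPM for Rpl39l (others 0.121 to 0.158) and highest for Rps29 (210 CPM, others 180 to 187).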

How the results depend on the processing

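Of 618 values for the named genes under the alternatives, 567 kept their direction and side of the threshold, 50 kept the direction but no longer passed, and 1 reversed, namely Rpl35 in WT-Tacr delayed mice, 0.36 with the series as a covariate. Counts of called genes moved more. Where brackets follow a count below, they hold the number of all genes called higher and lower in the same fit. A required log2 fold change above 1 left 4 in WT, 3 in WT-Tacr acute, 14 in WT-Tacr delayed, 0 in Rag2-/- and 0 in NSG mice after stroke, 4 in NSG against WT, 4 in NSG against Rag2-/-, 0 in delayed against acute and 2 between series. Of all genes, 7.3% passed this in WT and 15.5% in WT-Tacr delayed mice. The share of all genes is not given here for the other comparisons, so their counts are not read further. The Imm2 samples alone gave 21 (1142 and 386) in WT, 0 (42 and 0) in WT-Tacr acute and 7 (1391 and 373) in Rag2-/- mice. The TF samples alone gave 0 (0 and 0) in delayed against acute. With the series as a covariate there were 29 (1264 and 832) in WT, 0 (44 and 8) in WT-Tacr acute and 4 (972 and 561) in WT-Tacr delayed mice. That fit also gave 8 (1428 and 525) in Rag2-/- mice and 1 (879 and 704) in delayed against acute. Only the groups compared gave 0 in WT-Tacr acute, 46 in Rag2-/-, 4 in NSG mice, 11 in NSG against Rag2-/- and 0 in delayed against acute. The length-trend offset gave 5 (1176 and 360) in Rag2-/-, 41 (1706 and 1060) in NSG mice and 4 (1948 and 2122) in delayed against acute. Library totals gave 4 (1251 and 151) in Rag2-/- mice. The cause was not tested.

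Leaving out each sample in turn gave 49 to 58 called genes in WT, 0 to 47 in WT-Tacr acute, 52 to 56 in WT-Tacr delayed, 0 to 2 in Rag2-/- and 13 to 73 in NSG mice after stroke. Over all genes, those called higher in the same fits ran from 1700 to 2857, 31 to 2053, 4158 to 4550, 465 to 1069 and 1385 to 2666. Leaving out samples gave 7 to 8 in NSG against WT, 6 to 7 in NSG against Rag2-/-, 0 to 1 in stroked acute against WT, 0 to 2 in stroked delayed against WT and 0 to 12 in delayed against acute. Over all genes, those called higher ran from 522 to 727, 300 to 543, 0 to 421, 0 to 209 and 0 to 2669. Those called lower ran from 622 to 742, 359 to 511, 0 to 1016, 0 to 844 and 0 to 3124. The WT-Tacr acute count was 11 without its replicate 2, 0 without its replicate 3, and 10, 17 and 21 without non-stroked WT replicates 1, 3 and 5. In each of these WT-Tacr acute fits fewer of all genes were called as well, both higher and lower, than with every sample kept. With every sample kept the shares were 6.18% higher and 2.36% lower, and without replicate 3 the share higher was 0.18%. The lower counts were therefore not particular to the ribosomal protein genes. Delayed against acute gave 0 without acute replicate 1 or 2, 12 without acute replicate 3 and 1 without delayed replicate 3 or 5. Over all genes these fits called 0, 0, 2669, 1324 and 823 higher and 0, 0, 3124, 1091 and 662 lower. A replicate block for shared replicate numbers gave 11 in NSG against Rag2-/-, as did the same samples without it (11). Over all genes the block gave 587 higher and 618 lower, and the fit without it 691 and 716. In non-stroked Rag2-/- against WT mice the block called 0 of the ribosomal protein genes and, over all genes, 19 higher and 17 lower. The same samples without it gave 0 of these genes and, over all genes, 0 higher and 1 lower. Correlations of same-numbered samples ran from -0.258 to 0.108. Whether the numbers pair the samples is not settled by these values. With library totals the median log2 fold change of all genes was 0.139 in WT, 0.109 in WT-Tacr acute and 0.241 in WT-Tacr delayed mice, against -0.00, 0.01 and 0.00 with TMM.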
